A study of Vitis vinifera with 42 samples.

Results

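Cabernet Sauvignon clusters that had been kept in bags since shortly after fruit set (T1) were compared with clusters left in the light (T2) at one ripening stage, E-L 37, the last stage before harvest on the modified Eichhorn-Lorenz scale. The members are the 3 T1 and 3 T2 libraries sampled at that stage, which are 6 of the 42 libraries of the series, and every gene whose mean reached 1 FPKM in T1 or T2, which left 17846 of 28940 genes. FPKM scales the fragments counted for a gene by its transcript length and by the depth of the library, so that genes of different length can be compared.

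Bags were two-layered kraft paper, black inside, and were put on T1 clusters at E-L 29, at 3 weeks after flowering (WAF), where they stayed to harvest at E-L 38. T2 clusters were never bagged. Another treatment, T8, had bags on only between E-L 35 and E-L 36, so that at E-L 37 its berries had returned to the light, and its 3 libraries at E-L 37 serve below as a further set of values. All groups share the cultivar, the vineyard, 1 growing season and own-rooted vines, and the sample labels give 15 randomly chosen vines for each of the 3 biological replicates (A, B and C) of a treatment. RNA was taken from whole berries without their seeds, that is skin and flesh together, so fewer cells of a type and less RNA per cell cannot be told apart. Shade and any other condition inside a bag cannot be told apart in this design.

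In a ripening berry the outer cells still hold plastids that can carry out photosynthesis, and light reaching the skin is known to drive flavonol and anthocyanin synthesis. In plants at large, photoreceptors such as cryptochromes and phototropins sense blue light. The bZIP factors HY5 and HYH act downstream of photoreceptors and bind DNA at ACGT cores. MYB factors then set the activity of branches of the flavonoid pathway, in grapevine MYBA1 for anthocyanins, MYBPA1 for flavan-3-ols (the building blocks of tannins). Flavonol synthase (FLS) makes flavonols, which act as sunscreens, and UDP-glucose:flavonoid 3-O-glucosyltransferase (UFGT) adds the glucose that makes an anthocyanin stable.

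The values of VviFLS4 (VIT_218s0001g03470), described below, are why its upstream sequence is shown here. In the 1878 bases before the start codon that the study isolated from Cabernet Sauvignon, the letters ACGT, which read the same on both strands, occurred at 3 places, none of them within the full G-box CACGTG. The windows below run 5′ to 3′ with 10 bases on each side, the core in capitals and its first base counted upstream from the A of ATG.
VviFLS4, core at base 1122: ataggaccttACGTaaatgggtat
VviFLS4, core at base 1102: gtatgtaataACGTgatgcgaccc
VviFLS4, core at base 190: tcctcgtcacACGTcaccctttgg
A match is a run of letters and not a binding site, and how often other grape promoters hold one was not computed here.

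Total FPKM was 633251 to 658162.5 in the T1 libraries and 640017 to 643252.2 in the T2 libraries, and 21459 to 21853 genes in T1 and 21512 to 22146 in T2 had a value above 0. The 10 most abundant genes took 29.71% to 30.54% of the total in T1 and 25.48% to 26.19% in T2. T1 replicate C stood apart from its group. Across genes, which are not independent replicates, its log2 values correlated at 0.959 and 0.960 with the other T1 libraries, at 0.966 and 0.967 with T2 replicates A and B and at 0.951 with T2 replicate C. It also had the highest seed marker score of the 6 libraries. That score averages log2(FPKM + 1) over 13 markers (late embryogenesis and storage proteins of seeds) and was 2.51, 2.26 and 4.32 in T1 and 3.36, 4.02 and 1.86 in T2. The groups' mean scores were 3.03 ± 1.12 for bagged berries (T1) and 3.08 ± 1.11 for light berries (T2; SD over 3 libraries each; exact permutation test, two-sided, p = 1, where 0.1 is the smallest p possible). Leading counts below are therefore also given without T1 replicate C, or as the range over leaving out each of the 6 libraries in turn. The reference genes ubiquitin1 (VIT_216s0098g01190) and actin (VIT_204s0044g00580) both differed by -0.15 on the log2 scale (limma, Benjamini-Hochberg adjusted p = 0.41 and 0.25).

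The first question was which transcripts long bagging left different at E-L 37. With the fold threshold, most genes that passed were lower in T1: 152 genes were lower and 27 higher with an adjusted p below 0.05 and a log2 difference of 1 or more either way, which are 0.852% and 0.151% of the genes tested (limma on log2(FPKM + 1), two-sided, Benjamini-Hochberg adjustment over all genes tested). All fold changes below are on this scale, which understates the change of genes with low values. Without the fold threshold, the criterion for the lists below, 836 genes (4.68%) were lower and 141 (0.790%) higher. That imbalance depended on the scaling, since with median-of-ratios scaling 341 genes were lower and 312 higher. On the 6 libraries alone 354 were lower and 88 higher, and leaving out 1 library gave 291 lower and 39 higher without T1 replicate A and up to 920 lower and 208 higher without T1 replicate C. The libraries of T1 and T2 did not overlap for 145 of the 152 lower and 25 of the 27 higher genes, while T1 lay wholly below T2 for 21.8% and wholly above it for 6.47% of all genes tested. Among the lower genes were those for photosynthesis and its protection from light, and light signalling factors. The flavonol synthase gene FLS4, a pair of UFGT genes and the regulators MYBPA1 and MYBA1 were also among them. Among the higher genes were several that act on pectin in the cell wall. Over all genes tested the median difference was -0.10 (log2), and scaling by median of ratios moved it to 0.01. With that scaling 42 genes were higher and 107 lower, so that the lower genes made up 71.8% of the calls in place of 84.9%. Without T1 replicate C 51 genes were higher and 203 lower. T1 replicate C, not used for these 203 calls, lay below all 3 T2 libraries in 178 of them, against 40.2% of all genes tested, and above all 3 in 35 of the 51, against 18.4%. The T2 libraries were the same on both sides of that count.

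**Figure D1:**
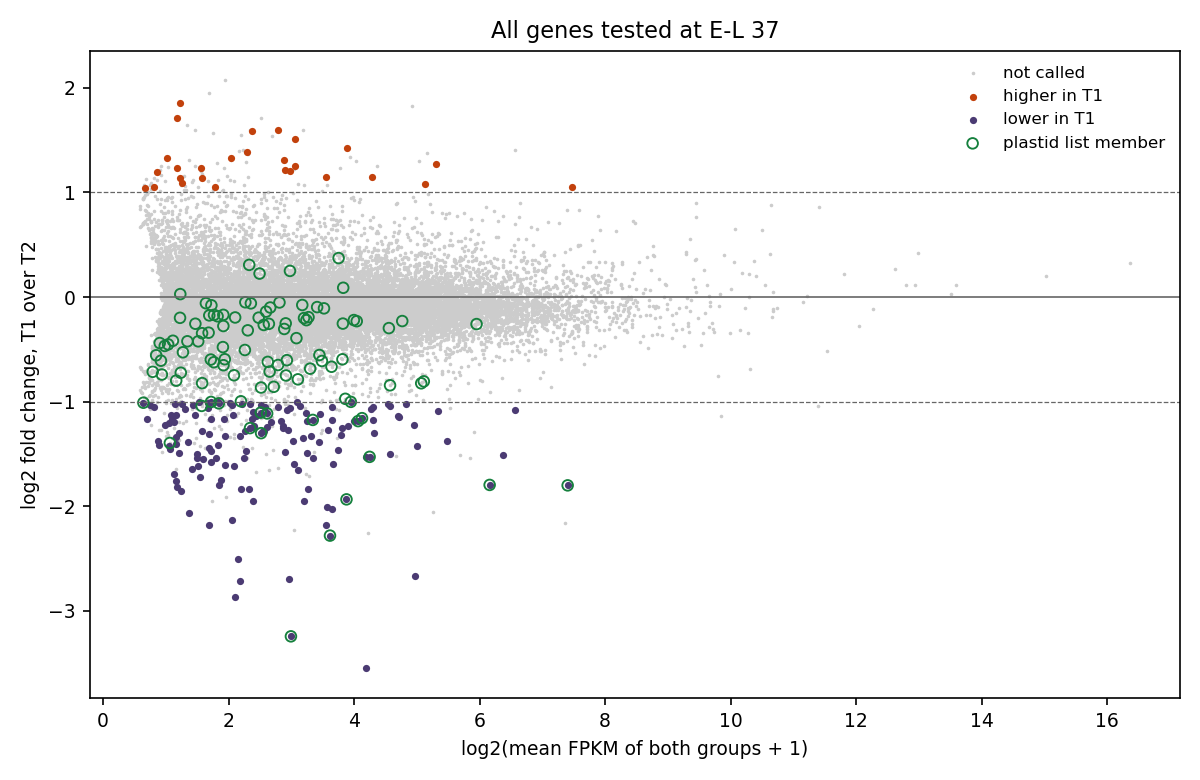
Log2 fold change of T1 over T2 at E-L 37 (y axis) against the log2 of the mean FPKM of both groups plus 1 (x axis), 1 point per gene tested; coloured points were called (27 higher, 152 lower), green circles mark members of 4 plastid lists and dashed lines the fold threshold. Called genes lie mostly below zero. Of the 100 circled genes 94 have a negative value, beside 11949 of all 17846 genes tested.

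Many genes of the photosynthetic apparatus were lower in T1. Of 100 tested members of 4 lists (light harvesting and photosystems, photoprotection, the Calvin cycle of carbon fixation and chlorophyll synthesis), 30 were lower and none higher at an adjusted p under 0.05, a share of 30.0% beside 4.68% of all genes tested, and their median log2 fold change was -0.52, beside -0.10 over all genes. With the fold threshold they gave 17 of the 152 lower genes (11.2%, where the lists hold 0.560% of genes tested). Summed over the 125 members in the table, their level was 652.03, 658.46 and 689.1 FPKM in T1 and 1241.92, 1404.82 and 1117.07 FPKM in T2, so that T1 stood at 53.1% of T2 with no overlap. The T8 libraries, back in the light, summed to 1127.74, 1296.8 and 1183.72 FPKM. Without T1 replicate C the 4 lists had 17, 4, 6 and 3 lower genes and none higher. The deposited gene ontology terms, which did not make these lists, named the chloroplast for 27.0% of the lower and 11.1% of the higher genes called with the fold threshold, beside 10.2% of all genes tested, and the thylakoid, the membrane that holds the photosystems, for 17.8% of the lower genes, beside 2.29%.

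VIT_212s0028g00320, a chlorophyll a/b binding protein of the antenna of photosystem II (LHCII), had 0, 1.38 and 0.45 FPKM in T1 libraries A, B and C, against 12.88, 13.76 and 13.29 FPKM in T2. It was the most reduced antenna gene, with a log2 fold change of -3.24 (SE 0.30, limma adjusted p = 1.4e-08). VIT_218s0001g02740, the photosystem II 22 kDa protein (PsbS) that lets the antenna shed excess light as heat, was on this list and on that of photoprotection and had 2.56, 4.45 and 2.66 FPKM in T1 and 16.62, 23.0 and 18.23 FPKM in T2. All 3 T1 values lay under the lowest T2 value, as for 21.8% of all genes tested, and the log2 fold change was -2.28 (SE 0.18, adjusted p = 3.9e-10). Of the 56 tested members of the list, 19 were lower and none higher, and the median was -0.61. A negative value was found for 55 of them, beside 11949 of all 17846 genes tested. With median-of-ratios scaling 15 were lower and none higher, and 50 of 56 were negative, beside 8674 of 17723 genes. Other members past the test were the photosystem II 10 kDa polypeptide (VIT_219s0027g00200, -1.53) and the antenna protein CP26 (VIT_218s0089g01170, -1.25). Both oxygen-evolving enhancer proteins named here after their values were seen, VIT_200s0207g00210 and VIT_212s0028g01080, which help photosystem II split water, were lower by less (-0.97 and -0.82, adjusted p = 0.0013 and 0.0037).

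Photoprotection had 7 tested members, of which 3 were lower, none was higher and the median was -1.04. The early light-induced protein ELIP (VIT_205s0020g04110), which binds pigments under strong light, was by far the most abundant, with 80.69, 63.23 and 79.95 FPKM in T1 and 252.56, 294.62 and 238.05 FPKM in T2. T1 averaged 28.5% of T2, and the log2 fold change was -1.80 (SE 0.29, adjusted p = 0.00015). The groups did not overlap, as for 21.8% of all genes tested and as the choice of the largest decreases required. Violaxanthin de-epoxidase (VIT_204s0043g01010), which makes the heat-dissipating pigment zeaxanthin, was lower by the same test (-1.11, adjusted p = 0.00015). The 3 genes for zeaxanthin epoxidase, which works in the other direction, had values of -0.51, -0.25 and 0.09 and none passed (adjusted p = 0.11, 0.21 and 0.70).

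Of 19 tested Calvin cycle genes, 6 were lower and none higher, with a median of -0.42. The small chain of RuBisCO (VIT_217s0000g03690), part of the enzyme that fixes carbon dioxide, had 26.43, 28.03 and 38.51 FPKM in T1 and 108.02, 132.33 and 89.51 FPKM in T2 (-1.80, SE 0.18, adjusted p = 6.1e-08). Both RuBisCO activases, which keep that enzyme working, were lower, VIT_206s0004g05180 by -1.93 and VIT_208s0007g00840 by -1.16, as was phosphoribulokinase (VIT_202s0109g00080, -1.17), which regenerates its substrate. Among 19 tested chlorophyll synthesis genes 3 were lower and none higher, with a median of -0.25. They were VIT_206s0004g00610 (-1.30), whose deposited annotation names a protein import component of the plastid and pheophorbide a oxygenase, an enzyme of chlorophyll breakdown, and no enzyme of synthesis, a subunit of the cyclase of magnesium-protoporphyrin ester (VIT_208s0040g00390, -1.19) and subunit H of magnesium chelatase (VIT_208s0007g08540, -1.10), which puts magnesium into the ring. Outside the lists, a mitochondrial serine hydroxymethyltransferase (VIT_200s0211g00120) was among the 15 largest decreases, with 3.18, 3.91 and 4.79 FPKM in T1 and 17.08, 23.13 and 17.45 FPKM in T2 (-2.03, adjusted p = 2.8e-09). Enzymes of this kind work in photorespiration and in the folate cycle.

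**Figure D2:**
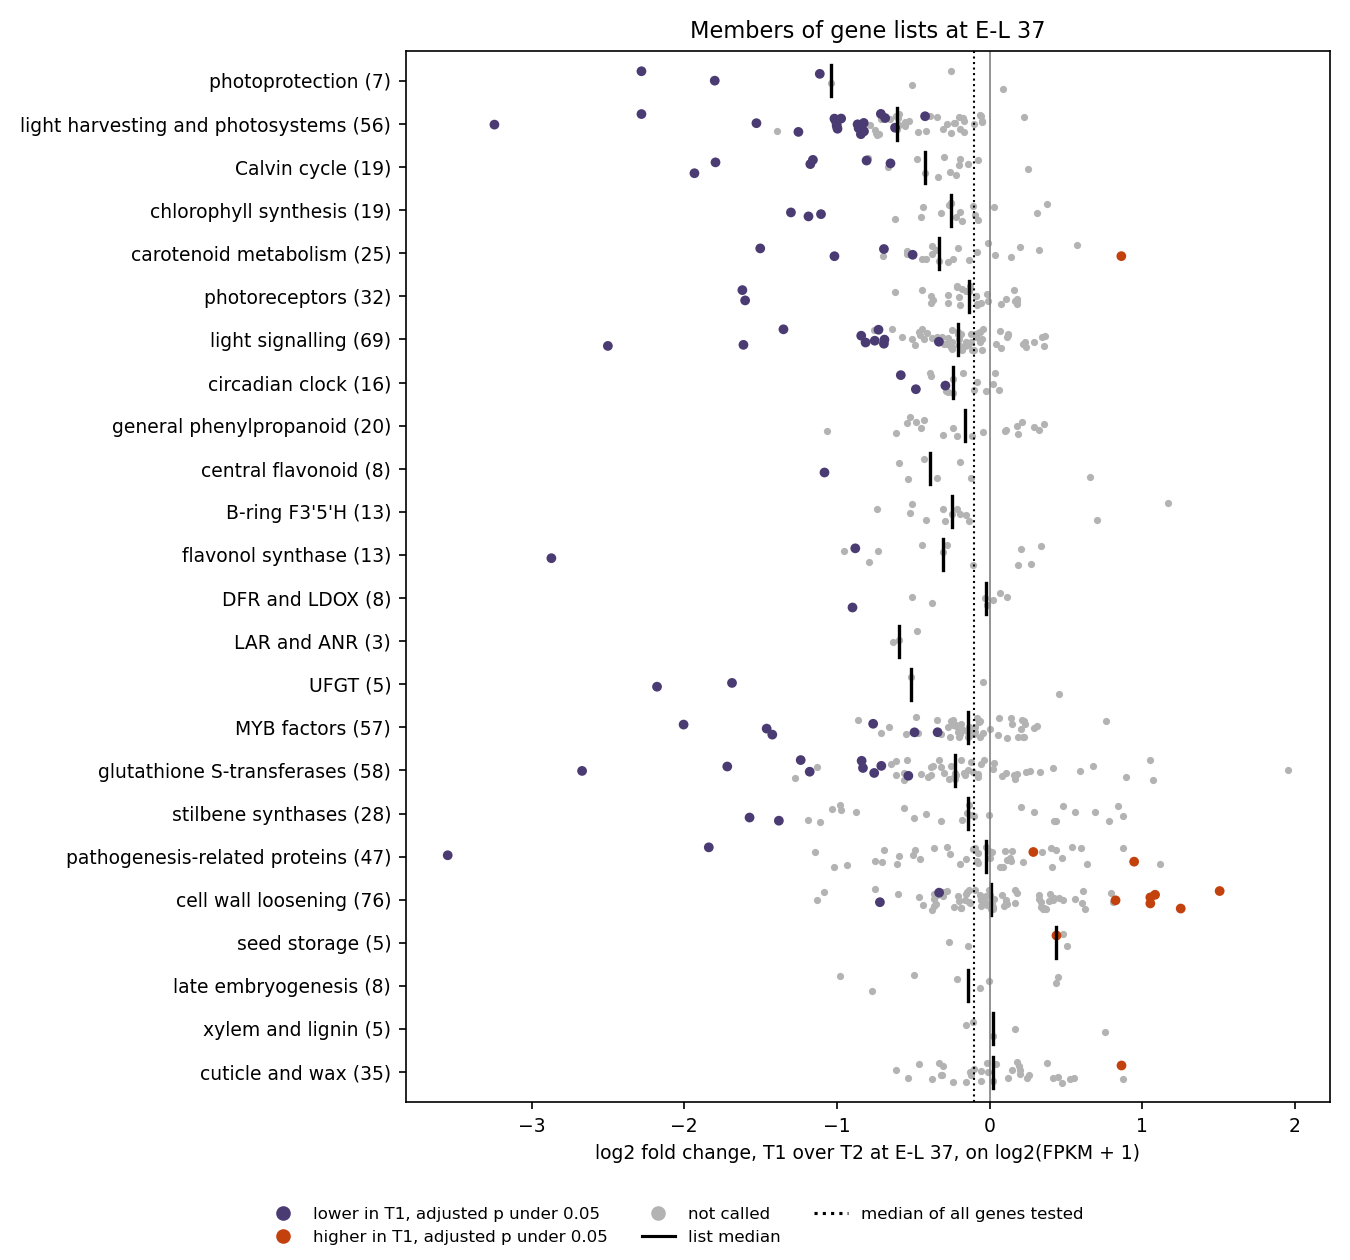
Log2 fold change of T1 over T2 at E-L 37 (x axis, log2(FPKM + 1) scale) for the tested members of 24 lists (rows, number tested in brackets); large points passed an adjusted p of 0.05, black bars are list medians and the dotted line is the median of all genes tested. The plastid lists at the top carry 30 of the lower calls and none of the higher ones, while the cell wall list has 6 higher and 2 lower.

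The next question was how genes of light perception and signalling stood in bagged berries. Of 32 tested photoreceptor genes 2 were lower and none was higher. That is close to the 4.68% of all genes that were lower. Both passed the fold threshold, with every T1 library below every T2 library, as for 21.8% of all genes. The gene that the study names CRY2 (VIT_209s0002g05990), annotated in the deposited table as a (6-4) DNA photolyase of the same protein family, had 0.38, 0.19 and 0.57 FPKM in T1 and 2.57, 4.88 and 2.56 FPKM in T2 (-1.62, SE 0.19, adjusted p = 9.8e-07). The phototropin gene VIT_203s0038g04210 had 0.88, 1.01 and 0.70 FPKM in T1 and 4.29, 6.70 and 3.40 FPKM in T2 (-1.60, adjusted p = 3e-07). A second gene of photolyase type, VIT_204s0008g02670, was picked after its values were seen and was also lower (-1.55, adjusted p = 0.00075). Photolyases use blue light to repair ultraviolet damage in DNA. The list's median of -0.13 lay next to that of all genes.

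HYH (VIT_205s0020g01090) was the most reduced member of the light signalling list. It had 0.31, 0.48 and 0.16 FPKM in T1 and 5.19, 8.44 and 5.97 FPKM in T2, so that T1 averaged 4.85% of T2 (log2 fold change -2.50, SE 0.24, adjusted p = 1.8e-08). HY5 (VIT_204s0008g05210) had 7.88, 7.85 and 8.18 FPKM in T1 and 16.36, 16.78 and 10.23 FPKM in T2. These libraries did not overlap either, as for 21.8% of all genes, yet HY5 did not pass the test (-0.75, SE 0.24, adjusted p = 0.056). The deposited annotation names other proteins for both genes (a TOR-associated protein and a cellulose synthase-like protein), and HYH and HY5 are the study's names for them. Of 69 tested members of the list 10 were lower and none higher, beside 4.68% and 0.790% of all genes, with a median of -0.21. With median-of-ratios scaling 4 were lower and 2 higher, and on the 6 libraries alone 5 were lower. Leaving out 1 library gave 3 to 9 lower genes, with 3 without T1 replicate A, 4 without T2 replicate B and 5 without T1 replicate B, and 1 higher gene without T1 replicate C. Among the 10 were VIT_205s0102g00750 (-1.35), which the study places in the CONSTANS family of zinc finger proteins linked to day length and light, and CONSTANS-like 4 (VIT_204s0008g07340, -0.69), picked after its value was seen. Of 16 clock genes 3 were lower and none higher, beside 4.68% and 0.790% of all genes, the largest being a pseudo-response regulator (VIT_215s0048g02540) with 15.23, 17.11 and 17.7 FPKM in T1 and 26.33, 24.29 and 25.64 FPKM in T2 (-0.58, adjusted p = 0.00018). With median-of-ratios scaling, on the 6 libraries alone, and without T1 replicate A, T1 replicate B or T2 replicate B, 1 clock gene was lower.

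Within the flavonoid pathway the genes that passed the test were lower in T1. Over all genes tested 4.68% were lower and 0.790% higher, so lower calls prevailed there too. FLS4 was listed at 0 in all 3 T1 libraries and had 7.53, 8.05 and 4.06 FPKM in T2. The test called it (adjusted p = 2e-08), and no fold is given because one side is at 0. T8 libraries at E-L 37 had 2.66, 5.74 and 4.10 FPKM. A neighbouring FLS gene by its number, VIT_218s0001g03430, picked after its values were seen, had 24.62, 25.12 and 26.82 FPKM in T1 and 35.68, 30.32 and 39.88 FPKM in T2, and did not pass (-0.44, SE 0.34, adjusted p = 0.48). Short reads can be shared between copies this alike, so values within the FLS, UFGT, stilbene synthase and MYBA families are less certain than others. Of 13 tested FLS genes 2 were lower and none was higher, the second being VIT_202s0012g00450 (-0.88, adjusted p = 0.044), whose call was lost in 10 of the 16 alternatives. Summed, the 25 FLS genes reached 188.22, 169.12 and 179.12 FPKM in T1 and 175.39, 196.32 and 193.0 FPKM in T2, which overlap.

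UFGT genes also differed among themselves. VIT_211s0052g01600 had 0.29, 0.10 and 0.10 FPKM in T1 and 3.86, 5.16 and 3.83 FPKM in T2, and T1 averaged 3.81% of T2 (-2.18, SE 0.19, adjusted p = 2.8e-09). VIT_211s0052g01630, beside it by its number, had 0.12, 0 and 0 FPKM in T1 and 2.54, 2.44 and 2.07 FPKM in T2 (-1.69, adjusted p = 6.4e-05). VIT_216s0039g02230, which had most UFGT transcript in both groups, had 59.42, 93.36 and 69.24 FPKM in T1 and 73.68, 86.91 and 65.59 FPKM in T2. Its groups overlapped and it did not pass (-0.04, SE 0.17, adjusted p = 0.92). With that gene included, the 9 UFGT genes summed to 70.93, 110.01 and 88.14 FPKM in T1 and 94.59, 120.56 and 95.51 FPKM in T2, which overlap.

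**Figure D3:**
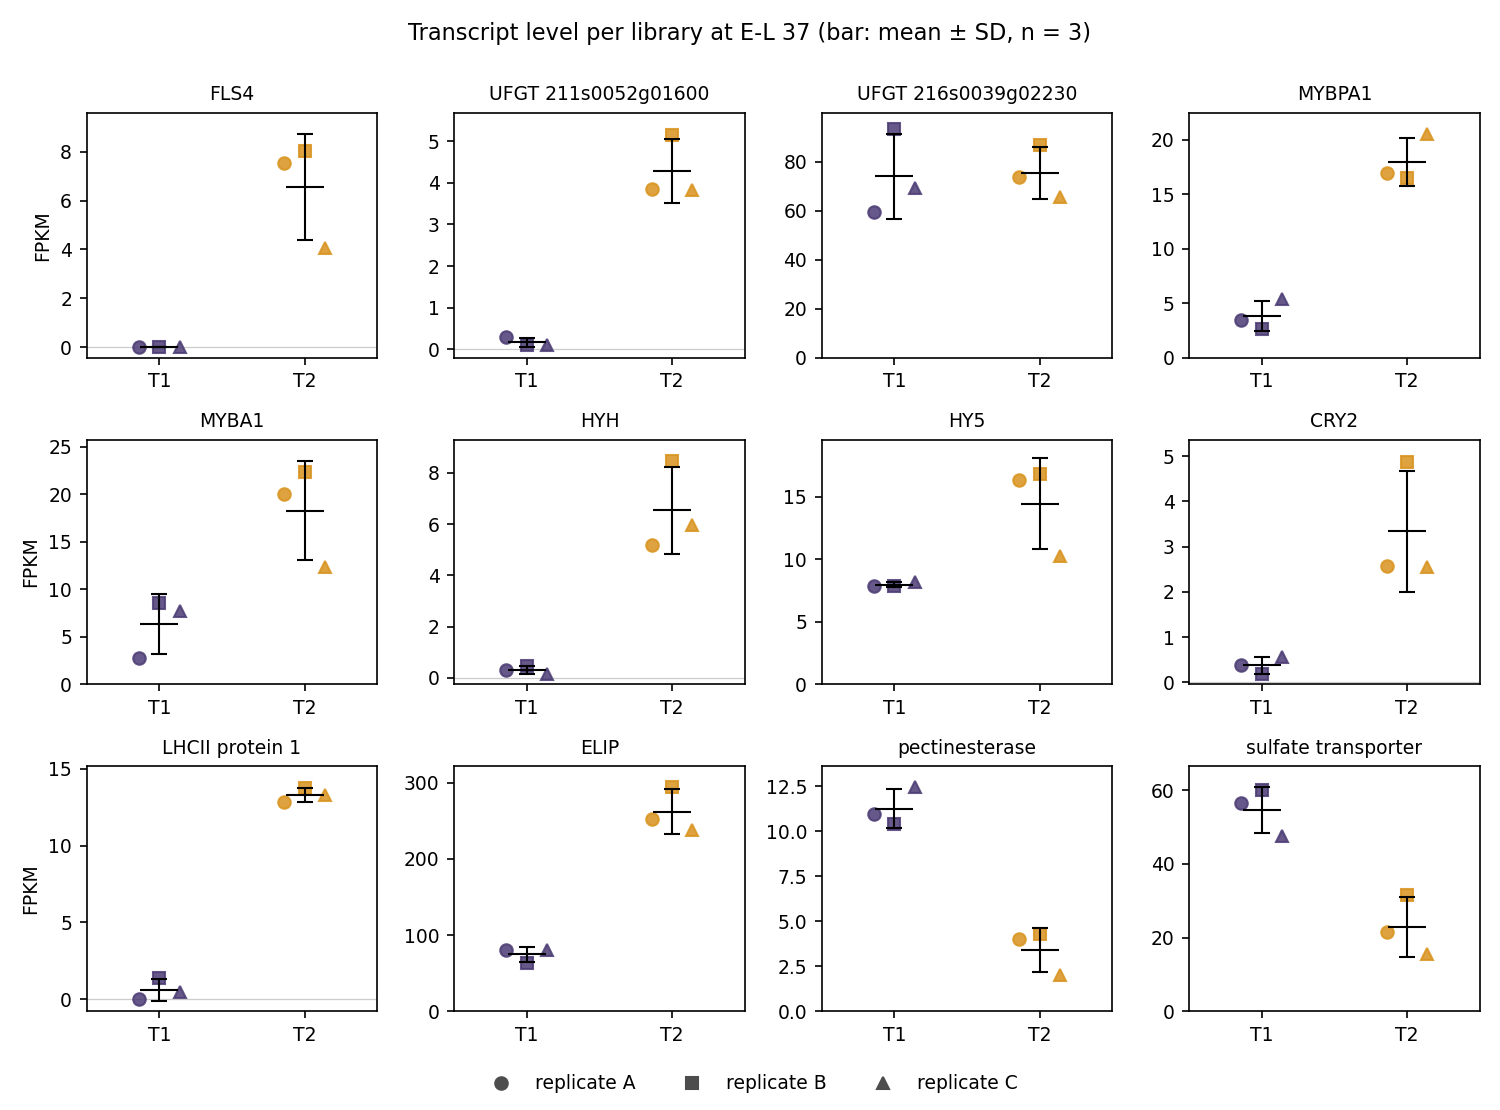
FPKM (y axis) of 12 genes in each T1 (left) and T2 (right) library at E-L 37, with the mean and SD of 3 libraries as a bar; marker shape gives the replicate letter. FLS4 is at 0 in all 3 T1 libraries, UFGT VIT_216s0039g02230 overlaps between the groups, and the pectinesterase and the sulfate transporter are higher in T1.

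Upstream, chalcone synthase, which opens the pathway, had high values in both groups. Its most abundant gene, VIT_205s0136g00260, had 576.55, 858.14 and 575.7 FPKM in T1 and 658.97, 880.28 and 737.41 FPKM in T2 (-0.20, SE 0.40, adjusted p = 0.82). Flavanone 3-hydroxylase VIT_218s0001g14310, which makes the dihydroflavonols that FLS uses, was the 1 gene of 8 in this central group past the test, with 51.19, 61.15 and 65.92 FPKM in T1 and 109.27, 141.56 and 130.11 FPKM in T2 (-1.08, SE 0.28, adjusted p = 0.019). That call was lost without T1 replicate A, T2 replicate B or T2 replicate C, where the value stayed negative. None of 20 general phenylpropanoid genes, 6 F3'H genes, 13 F3'5'H genes (the hydroxylases that set the colour of anthocyanins), 3 genes of flavan-3-ol synthesis (LAR and ANR), 7 flavonol glycosyltransferases or 8 genes of anthocyanin decoration and transport passed in either direction by this test. With median-of-ratios scaling 1 gene of decoration and transport was higher. Their medians were -0.16, -0.14, -0.24, -0.60, 0.08 and -0.01 in that order, the last turning to 0.09 with that scaling. Of 8 genes for dihydroflavonol reductase and leucoanthocyanidin dioxygenase 1 was lower (VIT_215s0048g01010, -0.90, adjusted p = 0.0058), and their median of -0.02 also turned to 0.09. F3'5'H VIT_206s0009g02830, the most abundant of its family here, averaged 90.9 FPKM in T1 and 120.5 FPKM in T2 (-0.41, SE 0.32, adjusted p = 0.49). VIT_202s0025g02920 had 13.56, 22.4 and 21.59 FPKM in T1 and 18.63, 18.56 and 12.35 FPKM in T2 (0.20, SE 0.26, adjusted p = 0.71). The study names this gene GT6, a glycosyltransferase of flavonols, while its deposited annotation names a flavonol 3-O-methyltransferase.

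Of 57 tested MYB genes 6 were lower and none higher, beside 4.68% and 0.790% of all genes. The count of lower MYB genes was 3 with median-of-ratios scaling, 1 on the 6 libraries alone, 2 without T2 replicate A and 3 without T1 replicate A, T2 replicate B or T2 replicate C. MYBPA1 (VIT_215s0046g00170) had 3.5, 2.65 and 5.38 FPKM in T1 and 16.96, 16.5 and 20.53 FPKM in T2 (-2.0, SE 0.39, adjusted p = 0.0017). All T1 libraries lay below all T2 libraries, as for 21.8% of all genes tested. MYBA1 (VIT_202s0033g00410), named VvMYBA3 in the deposited annotation, had 2.77, 8.57 and 7.77 FPKM in T1 and 20.06, 22.34 and 12.39 FPKM in T2 (-1.46, SE 0.39, adjusted p = 0.022), and its call was lost with a pseudocount of 0.1, in the fit on the 6 libraries alone and without T1 replicate A, T2 replicate A or T2 replicate B. VIT_214s0006g01290, a MYB gene with no further name, was listed at 0 in all 3 T1 libraries and had 1.27, 4.62 and 0.51 FPKM in T2 (adjusted p = 0.0022). That call was lost in the fit on the 6 libraries alone, and the values are low.

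Further calls were found among genes for detoxification, vacuolar transport and carotenoid metabolism. Of 58 glutathione S-transferases, detoxifying enzymes of which some bring anthocyanins to the vacuole, 9 were lower and none higher, beside 4.68% and 0.790% of all genes. The count of lower ones was 5 with median-of-ratios scaling and 4 to 12 with 1 library left out, lowest without T1 replicate A and highest without T1 replicate C. VIT_201s0026g01340 had 6.9, 9.3 and 6.22 FPKM in T1 and 52.93, 66.23 and 40.72 FPKM in T2 (-2.67, SE 0.19, adjusted p = 9.2e-11). A more abundant parC-like pair was picked after its values were seen. VIT_219s0015g02590 had 559.14, 488.56 and 1009.2 FPKM in T1 and 1088.6, 1115.9 and 1094.8 FPKM in T2 (adjusted p = 0.043), with T1 replicate C close to T2, and VIT_219s0015g02880 did not pass (-1.13, adjusted p = 0.089). A transporter like TRANSPARENT TESTA 12, which in Arabidopsis carries flavonoids into the vacuole, had 1.01, 1.29 and 0.61 FPKM in T1 and 3.88, 7.94 and 6.72 FPKM in T2 (VIT_208s0056g01070, -1.84, adjusted p = 1.7e-07). In carotenoid metabolism 4 of 25 genes were lower and 1 higher, beside 4.68% and 0.790% of all genes. Leaving out any 1 library kept the count of 4, and the higher call stayed only without T2 replicate B. The lower genes included 2 genes for 9-cis-epoxycarotenoid dioxygenase (NCED), the enzyme that commits carotenoids to abscisic acid. VIT_202s0087g00910 had 9.03, 13.96 and 11.49 FPKM in T1 and 33.38, 28.86 and 40.48 FPKM in T2 (-1.5, SE 0.30, adjusted p = 0.002), and VIT_205s0051g00670 had a value of -1.02. Among 46 abscisic acid signalling genes 2 were lower and 1 higher, and with median-of-ratios scaling none was lower and 1 higher. Of 7 terpene synthases tested, the 1 lower gene, annotated as a nerolidol synthase (VIT_200s0271g00010), was listed at 0 in T1 and had 2.99, 1.98 and 2.63 FPKM in T2 (adjusted p = 3e-07).

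Genes higher in T1 were fewer, with a median difference of 1.23 and a highest one of 1.86 among the 27, where the 152 lower genes had a median of -1.28 and reached -3.55. Cell wall loosening had 76 tested members, of which 6 were higher and 2 lower, and 5 of the 6 passed the fold threshold, beside 0.790% of all genes higher at this adjusted p. The list's median was 0.01. The count of higher members rested on single libraries: it was 1 without T1 replicate A or T2 replicate C, 2 without T2 replicate A, 3 without T1 replicate B, 5 without T2 replicate B and 6 without T1 replicate C, and 2 on the 6 libraries alone. A pectinesterase (VIT_213s0047g00230), which strips methyl groups from pectin, had 10.97, 10.39 and 12.45 FPKM in T1 and 4.0, 4.27 and 2.03 FPKM in T2 (1.51, SE 0.33, adjusted p = 0.0052), a call lost without T2 replicate C. Another pectinesterase, VIT_209s0002g00320, had 15.4, 10.61 and 6.77 FPKM in T1 and 3.47, 4.31 and 3.61 FPKM in T2 (1.25, adjusted p = 0.016). Pectate lyase VIT_205s0051g00590, which cuts pectin chains, had 59.78, 51.68 and 29.45 FPKM in T1 and 16.09, 24.76 and 22.27 FPKM in T2 (1.08, adjusted p = 0.021). Both calls were lost on the 6 libraries alone and without T1 replicate A, T1 replicate B or T2 replicate A, the second pectinesterase's also without T2 replicate C and with a pseudocount of 0.1. Across the list the summed level was 10607.4 to 11615.8 FPKM in T1 and 9889.82 to 10276.0 FPKM in T2, where expansin-A11 (VIT_218s0001g01130) averaged 789.2 FPKM in T1 and 612.8 FPKM in T2 without passing (adjusted p = 0.089).

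Other increases came from single genes. A probable sulfate transporter 3.5 (VIT_211s0016g04160) had 56.42, 59.89 and 47.61 FPKM in T1 and 21.37, 31.59 and 15.45 FPKM in T2 (1.28, SE 0.21, adjusted p = 0.00025). It was named among the largest increases, a choice made only among genes without overlap, and kept its call in all 16 alternatives. CTP synthase (VIT_201s0010g00240), which makes a nucleotide for RNA and lipids, had 22.22, 30.41 and 23.87 FPKM in T1 and 13.39, 14.22 and 6.66 FPKM in T2 (1.14, adjusted p = 0.019), a call lost without T1 replicate B or T2 replicate C. A receptor-like kinase with leucine-rich repeats (VIT_213s0064g01260) was the most abundant gene called higher, with 310.39, 233.03 and 177.13 FPKM in T1 and 99.73, 120.76 and 116.89 FPKM in T2 (1.06, adjusted p = 0.035). Its call was lost without any 1 of the libraries other than T1 replicate C. Among increases, 8 genes met all terms of the naming rule, so fewer than 15 are named.

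Defence genes gave no common direction. Of 47 pathogenesis-related genes 2 were lower and 2 higher, beside 4.68% and 0.790% of all genes. Leaving out 1 library gave 1 to 3 lower and 0 to 3 higher. PR-1 (VIT_203s0088g00710), a marker of salicylate responses, had 0.30, 0.57 and 3.2 FPKM in T1 and 58.0, 36.43 and 5.23 FPKM in T2, where T2 replicate C was close to T1 (-3.55, SE 0.72, adjusted p = 0.0026), a call lost in the fit on the 6 libraries alone. A chitinase (VIT_215s0046g01570), which cuts fungal cell walls, had 1.02, 0.60 and 1.30 FPKM in T1 and 8.98, 10.1 and 2.07 FPKM in T2 (-1.84, adjusted p = 0.015). The same pattern of a low T2 replicate C was seen in stilbene synthase VIT_216s0100g01100, an enzyme that makes resveratrol, with 0, 0.11 and 1.15 FPKM in T1 and 7.89, 4.35 and 0.32 FPKM in T2 (adjusted p = 0.037). The last 2 calls were lost without T1 replicate A, T1 replicate B, T2 replicate A or T2 replicate B. T8 berries at this stage had 1.56, 1.25 and 1.80 FPKM of PR-1 and 0.46, 0.48 and 1.06 FPKM of the chitinase, below every T2 library. Of 21 salicylate signalling genes PR-1 was the 1 lower gene and 2 of the NPR1 family, receptors of salicylate in Arabidopsis, were higher, VIT_210s0003g01730 (0.80, adjusted p = 0.0075) and VIT_217s0000g08080 (0.85, adjusted p = 0.037). The second call was lost without any 1 of the 6 libraries, and the first without T1 replicate A or T2 replicate C.

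Hormone lists otherwise held few calls: 1 higher and 1 lower of 74 for auxin, 2 and 1 of 64 for cytokinin, none and 1 of 45 for gibberellin, none and 1 of 63 for ethylene, 1 and none of 53 for brassinosteroid and none and 2 of 28 for jasmonate, beside 0.790% and 4.68% of all genes. With median-of-ratios scaling gibberellin had 1 higher and none lower, brassinosteroid 2 higher and none lower and jasmonate 1 higher and 2 lower. The jasmonate pair were VIT_200s0532g00050 (-1.0, adjusted p = 0.00025), which the study places among the JAZ repressors, and VIT_210s0003g03800, which the deposited annotation names TIFY 5A-like and the study places in the family of the receptor COI1. The gene named TIFY 5A had 13.92, 13.88 and 15.16 FPKM in T1 and 28.77, 34.09 and 27.62 FPKM in T2 (-1.02, adjusted p = 0.004). The auxin-responsive SAUR gene VIT_207s0031g02740 had 3.45, 5.44 and 3.13 FPKM in T1 and 13.49, 10.05 and 15.28 FPKM in T2 (-1.49, adjusted p = 0.0015). Its T8 libraries at E-L 37, back in the light, had 3.74, 4.70 and 5.67 FPKM, also below every T2 library. Ribosomal protein genes counted 8 lower and none higher of 84, with a median of -0.15, and with median-of-ratios scaling 1 lower at a median of -0.04. Without T1 replicate A no ribosomal gene was lower and without T1 replicate C 10 were.

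Lists that mark other tissues held few calls. Of 5 seed storage genes 1 was higher, annotated as a basic 7S globulin (VIT_207s0005g04460, 0.43, adjusted p = 0.044, lost in 10 of the 16 alternatives), and none of 8 late embryogenesis genes passed. Summed, the 9 late embryogenesis genes reached 217.48, 200.16 and 695.11 FPKM in T1 and 324.67, 816.43 and 110.16 FPKM in T2, a range within each group larger than that between them. When the seed score was added to the fit, an alternative picked once the data had been seen, 29 genes were higher and 154 lower. Xylem and lignin genes had no call among 5, and cuticle genes 1 higher among 35. UFGT genes, taken here as markers of coloured skin, were mixed, and whether each of them is specific to skin was not tested. VIT_216s0039g02230 was abundant in both groups, while VIT_211s0052g01600 and VIT_211s0052g01630 were lower in T1, as given above. The median of the 5 tested UFGT genes was -0.52. Among the other lists, 1 of 30 genes for the last steps of monolignol synthesis, 2 of 28 stilbene synthases and 4 of 76 heat shock proteins were lower and none higher. The same held for 1 of 33 genes for sugar transport and cleavage and 1 of 40 histones, while 1 of 21 aquaporins was higher and none lower. Over all genes tested 4.68% were lower and 0.790% higher. None of 40 WRKY, 22 ethylene response or 13 NAC factors passed. With median-of-ratios scaling no stilbene synthase or histone passed, 1 sugar gene and 1 WRKY factor were higher, and no sugar gene was lower.

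The same comparison was made at the stages on either side of E-L 37, with libraries of their own. Of the 152 lower genes, 42 (27.6%) were also lower at E-L 36 by the same thresholds, where they were 61.8% of 68 such genes, and 41 (27.0%) at E-L 38, where they were 66.1% of 62, against 0.381% and 0.347% of all genes tested. At E-L 35 it was 54 (35.5%), or 19.1% of 282, against 1.58%. At E-L 37 but at neither E-L 36 nor E-L 38, 89 genes were called lower. Failing the test there does not show that they differ, and 126 of the 152 had a negative value in the E-L 36 comparison and 147 in that of E-L 38, against 50.8% and 55.4% of all genes. Of the 27 higher genes 1 was also called higher at E-L 36 (0.241% of all genes) and none at E-L 38 (0.0392%). A positive value was found for 23 and 16 of them, against 48.9% and 44.3% of all genes.

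Some of the most reduced genes were lower in T1 at each stage compared. HYH differed by -2.37, -3.16, -2.84, -2.50 and -2.01 at E-L stages 31, 35, 36, 37 and 38, and LHCII VIT_212s0028g00320 by -3.51, -3.16, -2.69, -3.24 and -2.24, all past the test. FLS4 was at 0 in every T1 library of the ripening stages 35 through 38, and of these stages its mean T2 level was highest at E-L 37, at 6.55 FPKM. At E-L 31 the FLS4 difference did not pass (-0.16, limma adjusted p = 0.70). MYBPA1 took another course, with a difference of 1.16 at E-L 31 (adjusted p = 0.023), -1.68 at E-L 35 (adjusted p = 0.0033) and -2.0 at E-L 37, and none passing at E-L 36 (-0.72, adjusted p = 0.41) or E-L 38 (-0.73, adjusted p = 0.68). The change of its difference between E-L 37 and E-L 36 did not pass either (-1.28, adjusted p = 0.35).

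**Figure D4:**
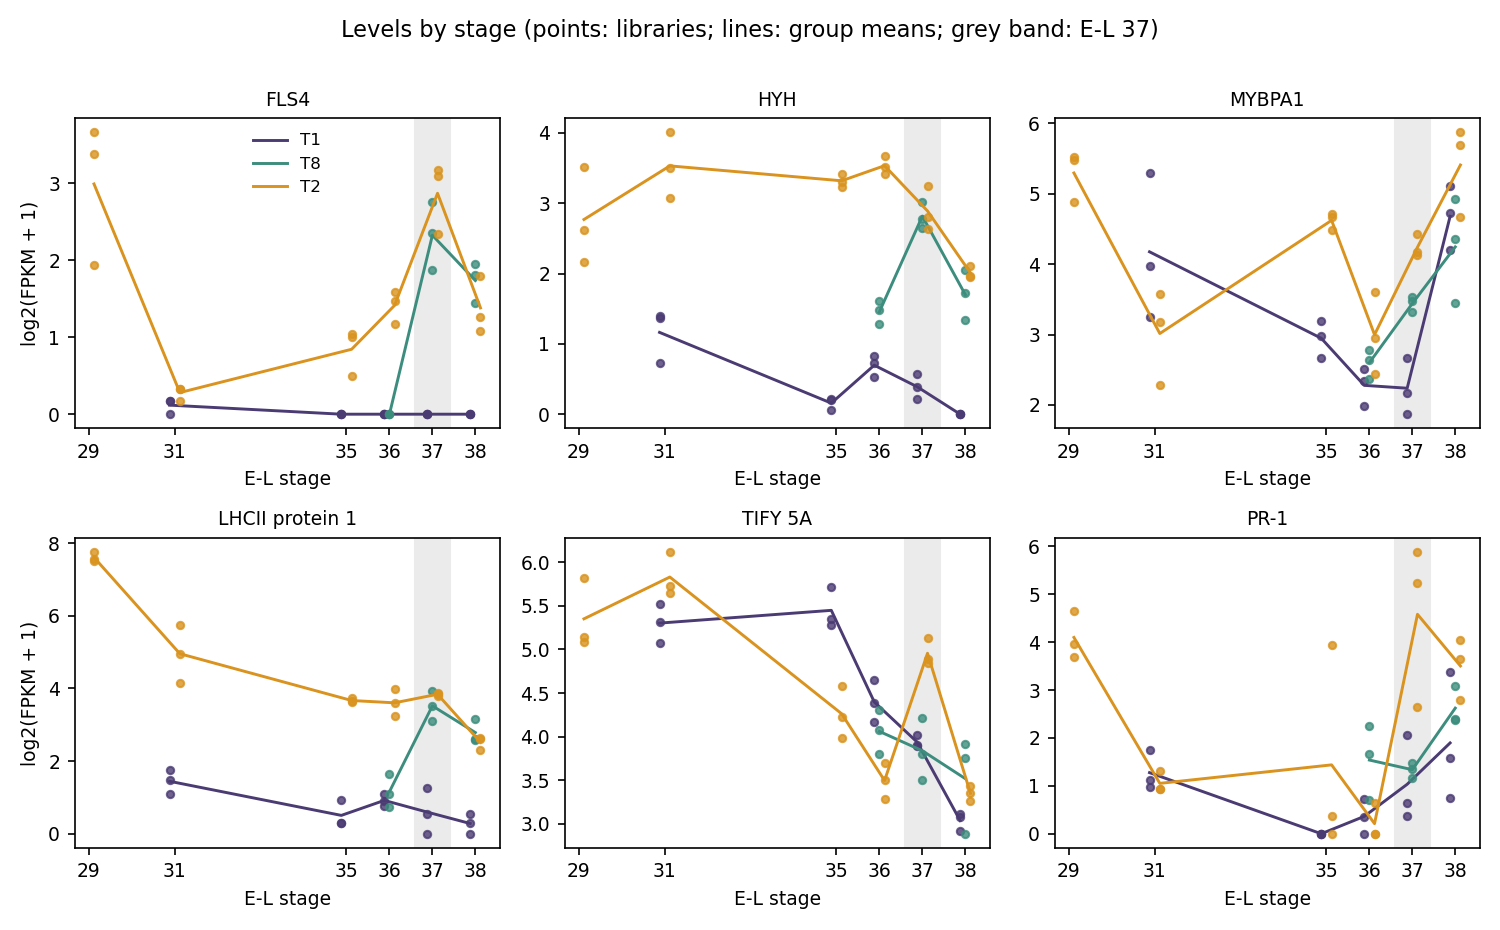
Log2(FPKM + 1) (y axis) by E-L stage (x axis) for 6 genes in T1, T8 and T2; points are libraries, lines join group means and the grey band marks E-L 37. T1 stays low at all its stages for HYH and the LHCII gene, and TIFY 5A crosses, with T1 higher at E-L 36 and lower at E-L 37.

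The size of the bagging effect was also tested between stages. It differed between E-L 37 and E-L 36 for 22 genes (0.123% of those tested; contrast of the same limma fit, adjusted p under 0.05), and for 20 of them the value was positive in the earlier stage and negative in the later one. Among these were TIFY 5A, the SAUR gene above, a homeobox gene of the ZF-HD family (VIT_201s0026g02460, -1.23 at E-L 37, against 0.53 one stage earlier) and a response regulator of cytokinin type, ARR9-like (VIT_217s0053g00380, -0.98, against 0.93 earlier). The other direction was seen in alternative oxidase 3 (VIT_202s0033g01380), which lets mitochondria bypass part of their electron chain, at 0.66, against -1.41 earlier. These last 3 genes were chosen after their values were seen. The count was 68 without T1 replicate C, 7 without T1 replicate A or T2 replicate B, 8 without T2 replicate A and 8 with median-of-ratios scaling. Between E-L 37 and E-L 38 no gene differed by this test, with 1453 genes (8.14%) at an unadjusted p under 0.05, and 3 genes passed with a pseudocount of 0.1.

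T8 berries at E-L 37 had been in the light again since E-L 36, and a direct test of T1 against T8 was possible for the same genes. T1 was lower than T8 for 357 genes (2.0%) and higher for 62 (0.347%) with the fold threshold, and T8 was higher than T2 for 266 (1.49%) and lower for 58 (0.325%). These comparisons share libraries with the one above. T1 was lower than T8 for HYH (-2.43, adjusted p = 3.8e-08), CRY2 (-1.59, adjusted p = 1.5e-06), LHCII VIT_212s0028g00320 (-2.92, adjusted p = 1e-07), ELIP (-1.79, adjusted p = 0.00017), UFGT VIT_211s0052g01600 (-1.95, adjusted p = 3.1e-08) and FLS4 (adjusted p = 1.5e-06). The same test did not pass for MYBPA1 (-1.20, adjusted p = 0.059), MYBA1 (-0.46, adjusted p = 0.57), PR-1 (-0.30, adjusted p = 0.87) or TIFY 5A (0.10, adjusted p = 0.86). MYBA1 had 7.78, 7.87 and 9.58 FPKM in T8, all under the lowest T2 library. The T8 libraries had seed marker scores of 5.63, 5.82 and 5.69, above those of all T1 and T2 libraries here, and the part of seed tissue in these values was not tested.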

How the data were processed

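Berries of Cabernet Sauvignon were profiled by poly(A) RNA sequencing with single-end reads. The authors used the second version (V2) of the PN40024 genome as reference for alignment by Bowtie, per their methods, or by Bowtie2 2.2.5 per the submitters' processing notes, and deposited FPKM per gene and library, with 2 decimals, not scaled to a common total. The tool that counted reads is not given in the sources used here. Reads per gene were not used, so depth per gene is unknown and counting error is not given; a gene listed at 0 may lie below detection. The study's test, NOISeq, could not be run here.

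The scale of analysis was log2(FPKM + 1). Tested were genes whose mean reached 1 FPKM in T1 or T2 at E-L 37, with limma 3.58.1 in R 4.3.3, fitting the 14 group means to all 42 libraries (28 residual degrees of freedom), the variance trended on the mean, tests two-sided and p-values adjusted by Benjamini-Hochberg; fold changes on this scale understate the change of low genes. Tables and figures were made with Python 3.11.15, pandas 2.3.3, numpy 2.4.6 and matplotlib 3.10.9. Scripts were tested on simulated data. The 46 gene lists come from family tables of the study (phenolic and signalling genes) and from words in the deposited annotation. Members and lists were chosen with earlier results of these data known. Gene names follow the study or the best deposited BLAST or KEGG hit.

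Named genes are those the study names for this stage or for light signalling, the 15 largest increases and decreases that were called with the fold threshold, had at least 5 FPKM in a group, no overlap and an annotated function, up to 4 members per list with the smallest adjusted p, and 2 reference genes; other genes are said to be chosen after their values were seen or stand as family values. Alternatives were a pseudocount of 0.1, other filters, 2 scalings, a replicate block, no trend, only the 6 libraries, leaving out each library, and a seed score covariate added later. Replicates are called biological, but nothing says that their vines were separate sets, so p-values measure only the spread between these samples.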

Additional observations from a re-analysis of the deposited data

Results flagged for a closer look

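Some results stood out because the bagging effect differed between E-L 37 and the stage before it, by a test of that difference. In the SAUR gene VIT_207s0031g02740 the log2 difference of T1 over T2 was -1.49 at E-L 37 and 0.48 at E-L 36, a change of -1.97 (adjusted p = 0.032). In TIFY 5A (VIT_210s0003g03800) it was -1.02 at E-L 37 and 0.90 at E-L 36, a change of -1.92 (adjusted p = 0.003). In all, 22 genes differed in this way (limma contrast, Benjamini-Hochberg adjusted p under 0.05). The SAUR gene and TIFY 5A were also lower in T8 than in T2 at E-L 37 (-1.28 and -1.12, limma adjusted p = 0.0077 and 0.0028). T1 against T8 did not pass for either (-0.20 and 0.10, limma adjusted p = 0.77 and 0.86). The low values at E-L 37 were thus not particular to berries still in bags.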

How the results depend on the processing

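Of 88 named genes called at E-L 37, none changed direction under any of the 16 alternatives that still tested it. Most were named through a small adjusted p or a lack of overlap, so their direction could hardly change and shows little. The number that lost the call was 2 with the seed score covariate, 4 with the replicate block and 38 with only the 6 libraries. It was 37, 33 and 12 without T1 replicate A, B or C, and 29, 25 and 34 without T2 replicate A, B or C. With median-of-ratios scaling 18 calls were lost. UFGT VIT_216s0039g02230, not called, moved to 0.078 with median-of-ratios scaling and, leaving out single libraries, ranged from -0.22 to 0.10. The count of higher genes was 27 and became 45 with a pseudocount of 0.1, 15 with a filter at 5 FPKM, 42 with median-of-ratios scaling and 10 with only the 6 libraries, where 113 were lower. Leaving out 1 library gave 19 to 51 higher and 110 to 203 lower genes, the most without T1 replicate C. The count of lower genes was 95 with the filter at 5 FPKM, where fewer genes were tested. Genes whose effect differed from E-L 36 numbered 8 with median-of-ratios scaling and 7 to 68 without 1 library. For E-L 38 there were 3 with a pseudocount of 0.1 and 0 to 1 without 1 library. Same-letter T1 and T2 residuals at E-L 37 correlated at -0.09, -0.16 and -0.33 across genes. So few pairs cannot show whether replicate letters paired the samples in the field. With the replicate block 29 genes were higher, 150 lower and 20 differed from E-L 36. Counts of genes that differed from E-L 36 were lowest without T1 replicate A (7), T2 replicate B (7) or T2 replicate A (8) and highest without T1 replicate C. The cause of these shifts was not tested. FPKM carry no depth per gene, so their counting error is unknown.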
